A study of Homo sapiens with 49 samples.

Results

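The regions occupied by MYC were mapped in T-47D cells, a luminal breast carcinoma line, by chromatin immunoprecipitation and sequencing (ChIP-seq) after 1 h with 10 nM 17β-estradiol (E2) or with its vehicle, DMSO. Both groups were kept for 5 days in hormone-depleted medium before treatment and were precipitated with the same MYC antibody, and each group was 1 library of 1 established line. The members are all peaks of the 2 lists that the authors called, 601 under DMSO and 1822 under E2, of 528044 peaks in all 45 lists of the series. Peaks were classed as shared when they overlapped a peak of the other list by at least 1 bp, and otherwise as E2-only or DMSO-only. Joined across the lists, they made 2133 regions. The other T-47D lists used for comparison cover MAX, TAF1, c-JUN, LSD1 and RARA (DMSO or E2, 1 h), RNA polymerase II (RNAPII, 2 libraries per treatment), SIN3A in stripped or full medium, and histone marks (DMSO or E2, 8 h).

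MYC is a basic helix-loop-helix leucine zipper transcription factor that pairs with MAX, and the pair recognises the E-box, whose canonical form is CACGTG. It is known for raising transcription of genes for ribosomes, translation, nucleotide synthesis and glycolysis, mostly from promoters that are already active. MYC itself is a well-known early target of the estrogen receptor in breast cancer cells. H3K4me3 is a mark of active promoters, H3K4me1 of enhancers, and H3K27me3 of genes silenced by Polycomb complexes.

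The label of the cells was checked against marker genes. All 16 luminal breast factors (ESR1, FOXA1, GATA3, PGR and others) had H3K4me3 at a start site, against 5 of 12 endometrial and Müllerian factors. Of all 20090 protein-coding genes 12479 had it, so a single gene with H3K4me3 says little about the cell type. A list of the series went against its label, however. Of the 6305 regions labelled H3K27me3 under DMSO, 85.7% lay in H3K4me3 regions and 98.4% in regions of the first DMSO library of RNAPII, so that list is described below only as labelled and not as a silencing mark. The H3K27me3 list under E2 held 107 regions, of which 0.935% lay in H3K4me3 regions. Each MYC list also held 9 regions of the mitochondrial chromosome, all of them shared.

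Sequences are shown first, since they are what MYC and MAX read. Each is from GRCh37, on the plus strand and 5′ to 3′, with E-box words on either strand (the canonical CACGTG, the variant CACGCG and the further variant CACATG) in capitals. The first set holds 121 bases centred on the summit of 5 regions named below, a shared region at PGK1 that gained most under E2, E2-only regions at the U6 gene RNU6-1 and near ACBD3, a DMSO-only region upstream of TRERF1, and a shared region between PEBP1 and VSIG10.
PGK1, chrX:77359514-77359634: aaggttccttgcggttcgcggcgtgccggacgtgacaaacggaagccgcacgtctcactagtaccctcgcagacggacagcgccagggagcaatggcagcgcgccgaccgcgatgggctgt
RNU6-1, chr15:68132525-68132645: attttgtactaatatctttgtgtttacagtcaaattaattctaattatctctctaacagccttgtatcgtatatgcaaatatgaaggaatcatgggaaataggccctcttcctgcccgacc
ACBD3, chr1:226323028-226323148: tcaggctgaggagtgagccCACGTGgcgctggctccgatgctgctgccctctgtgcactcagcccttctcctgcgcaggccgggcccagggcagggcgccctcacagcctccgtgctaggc
TRERF1, chr6:42420986-42421106: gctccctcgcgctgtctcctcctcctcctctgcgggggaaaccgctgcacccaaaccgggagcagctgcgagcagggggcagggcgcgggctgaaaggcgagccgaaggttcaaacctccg
PEBP1 and VSIG10, chr12:118573797-118573917: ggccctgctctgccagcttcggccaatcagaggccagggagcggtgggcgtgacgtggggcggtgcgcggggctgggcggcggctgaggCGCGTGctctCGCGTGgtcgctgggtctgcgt

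The 3 E-box words were absent from the PGK1, RNU6-1 and TRERF1 windows, and the PEBP1 and VSIG10 window held 2. The second set holds 30 bases around an E-box word near the summit at genes of the functional lists described further on.
PAICS, chr4:57302545-57302574: tgagctcgcggcCACGTGcgagccgcgaaa
ATIC, chr2:216176724-216176753: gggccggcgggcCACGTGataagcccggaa
RPL22, chr1:6259564-6259593: ctcggcgaggccCACGTGcctcccctggag
WDR43, chr2:29117524-29117553: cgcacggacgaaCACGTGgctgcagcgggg
KCNK5, chr6:39197187-39197216: actctgggcagaCACGTGggccgcttctcc
LDHA, chr11:18416342-18416371: gcccacacaacgCATGTGttcggagctcgc
HK2, chr2:75062004-75062033: cctgagctccggCACGCGctcacgctctct
MTHFD2, chr2:74425706-74425735: ccgcagtataacCGCGTGgcccgcgcgcgc
MCM2, chr3:127317062-127317091: cgcaggcgagcgCACGCGcacagcgccggg
YARS1, chr1:33282919-33282948: gccgggaactgtCACGCGagtccagccagg
The middle of the E-box word lay -1 bases from the summit at PAICS, 22 at ATIC, -25 at RPL22, 19 at WDR43, 1 at KCNK5, 13 at LDHA, -27 at HK2, -33 at MTHFD2, -34 at MCM2 and -39 at YARS1, on the plus strand.

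The first question was how the MYC regions differed between E2 and DMSO. The E2 list held 3.03 times as many regions as the DMSO list. Of the 2133 joined regions 1533 (71.9%) were E2-only, 312 (14.6%) were DMSO-only and 288 (13.5%) were in both lists. In each list 289 regions were shared, which is 15.9% of the E2 list and 48.1% of the DMSO list. Few of the additional regions had a DMSO region near them: 1.70% of E2-only regions lay within 500 bp of a DMSO region and 4.44% within 10000 bp. The E2 regions covered 678 kb and the DMSO regions 222 kb, with mean fold enrichments (summit signal over local background, as called by the authors) of 8.89 and 9.12. With 1 library per treatment there is no replicate, so these differences have no test, and all intervals given here cover counting error only.

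The classes were of similar strength. The median fold enrichment was 8.72 at E2-only and 8.97 at DMSO-only regions, and at shared regions it was 8.49 in the E2 list and 8.84 in the DMSO list. The number of sequenced fragments behind each summit, recovered from the fold enrichment and p-value, was small. Its median was 23 at E2-only regions, 20 at DMSO-only regions, and 28 (E2 list) and 23 (DMSO list) at shared regions, and the weakest peaks of both lists rested on 11 fragments. Regions unique to a treatment were therefore not set apart by a high signal. The local background differed between the libraries: over the 286 regions that could be paired between the lists, it was higher under E2 in 276, with a median ratio of 1.43. The sources used here do not say which input served as control for each call, so background and fold enrichment of the lists may rest on different controls. The part of the background in the number of regions called was not tested, and the total depth of the libraries cannot be read from the lists.

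Sharing was most frequent among the strongest regions. Of the 50 regions with the smallest p-values, 64.0% (95% exact interval 49.2 to 77.1) of the E2 list and 76.0% (61.8 to 86.9) of the DMSO list were in the other list as well. Among the E2 regions ranked from 602 to 1200 the share was 10.4% (8.03 to 13.1), and among the DMSO regions below rank 300 it was 43.5% (37.8 to 49.3). When the E2 list was shortened to its strongest 601 regions, 148 were shared and 453 of each list were unshared. Against the full E2 list 312 DMSO regions were unshared. Part of the 453 DMSO regions thus had an E2 peak that fell below the cut.

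**Figure D1:**
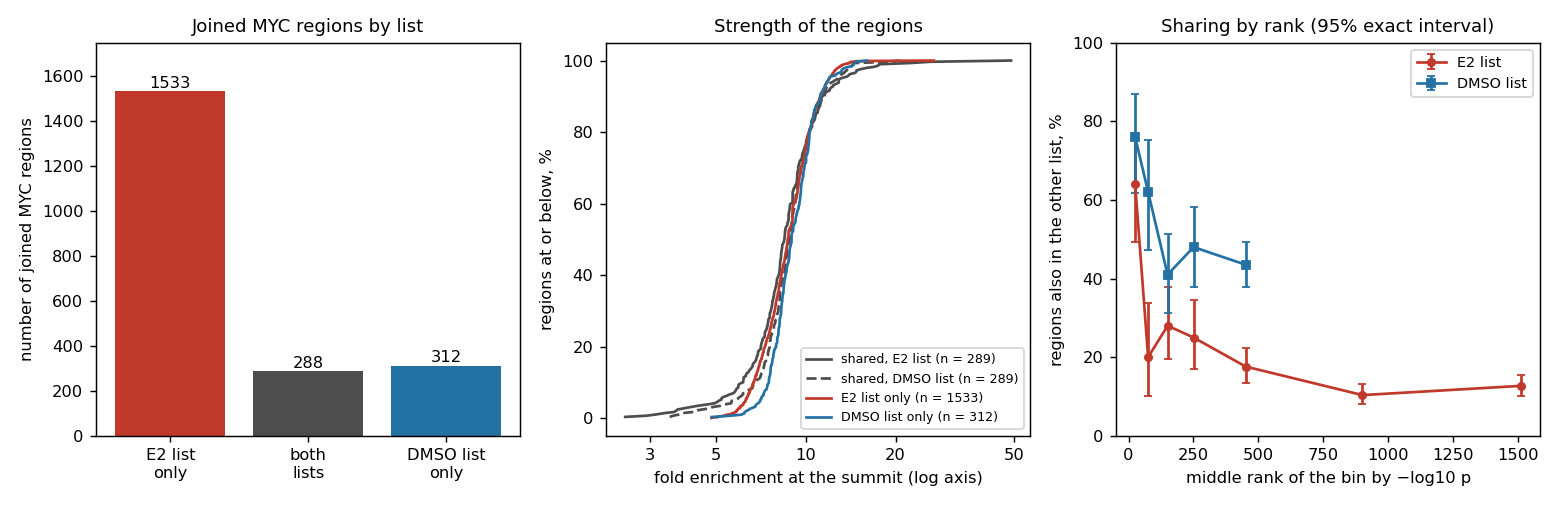
Left, number of joined MYC regions found in the E2 list only, in both lists or in the DMSO list only. Middle, cumulative share of regions (y axis, %) by fold enrichment at the summit (x axis, log scale) for each class, with curves that lie close together. Right, share of regions also in the other list (y axis, %, with 95% exact binomial intervals) by rank of −log10 p (x axis), which is highest in the 50 strongest regions of each list.

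Where a region was called under both treatments, its 2 fold enrichments were mostly of similar size. Fold enrichment also varied little between regions. The middle 50% of shared regions ran from 7.43 to 9.86 in the E2 list and from 7.83 to 9.86 in the DMSO list. Close ratios therefore do not show that each region kept its own level. Over the 286 pairs the median ratio of fold enrichment, E2 over DMSO, was 0.962 (95% interval of the median 0.933 to 0.995), the middle 50% of ratios ran from 0.817 to 1.11, and 124 pairs (43.4%) were higher under E2. The direction turned with fold enrichment of at least 10 (1.02) and with the E2 list shortened to the length of the DMSO list (1.08). The ratio passed 1.5 upwards in 12 pairs and downwards in 17. The fragments at the summit rose more often, in 230 of the 286 pairs with a median ratio of 1.22, while the background under them rose by the larger factor given above. Across pairs, fold enrichment in the 2 lists had a Pearson correlation of 0.436 and a Spearman correlation of 0.451. These are a description, since regions of the same library are not replicates.

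PGK1, which encodes the glycolytic enzyme phosphoglycerate kinase, had the largest ratio, followed by a MIR663AHG pair (3.67) and then by ratios of at most 1.85. At its start site (chrX:77359142-77360008) the fold enrichment was 11.9 under DMSO and 48.7 under E2, with 51 and 279 fragments at the summit (the ratio of fold enrichments was 4.08). It was the strongest region of the E2 list and ranked 37 in the DMSO list. The same place had regions in T-47D lists of other antibodies, of high rank in some and low in others. It ranked 1 of 442 in LSD1 under E2 (17.5), 2 of 42 in LSD1 under DMSO (18.8), 14 of 5645 in TAF1 under E2 (27.3, against 5.05 under DMSO) and 16 of 755 in RARA under E2 (25.9, against 9.68 under DMSO). In c-JUN it ranked 27108 of 28703 under DMSO (5.98) and 17266 of 24885 under E2 (10.1), and under DMSO it ranked 3679 of 4591 in TAF1. H3K4me3 there was 8.37 under DMSO and 6.23 under E2. The PGK1 promoter is also a common element of expression vectors, and whether the libraries held such DNA was not tested.

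The other large increases were smaller. Fold enrichment went from 7.07 to 25.99 at a start site of the long non-coding RNA gene MIR663AHG on chromosome 20, from 8.63 to 15.9 in an intergenic region 131143 bp from CARTPT, from 8.21 to 13.9 at VKORC1 (a vitamin K epoxide reductase) and from 7.87 to 13.3 at PPRC1, a coactivator of the PGC-1 family. Of these, the MIR663AHG, CARTPT and PGK1 regions lay in at least 1 of 6 short lists, defined as lists of at most 120 regions of other antibodies or of Ishikawa cells. The largest decreases were at ALDH3A2 (fatty aldehyde dehydrogenase), from 10.0 to 5.11, at POMK, from 10.96 to 6.18, at RPS20 (a ribosomal protein), from 14.3 to 8.09, in an intron of the orphan receptor gene ESRRG, from 13.8 to 8.21, and at INTS14 and SLC24A1, from 12.5 to 7.47. At POMK and RPS20 the fragments were 25 and 34 under DMSO and 27 and 33 under E2, so the lower values there came with a higher background.

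**Figure D2:**
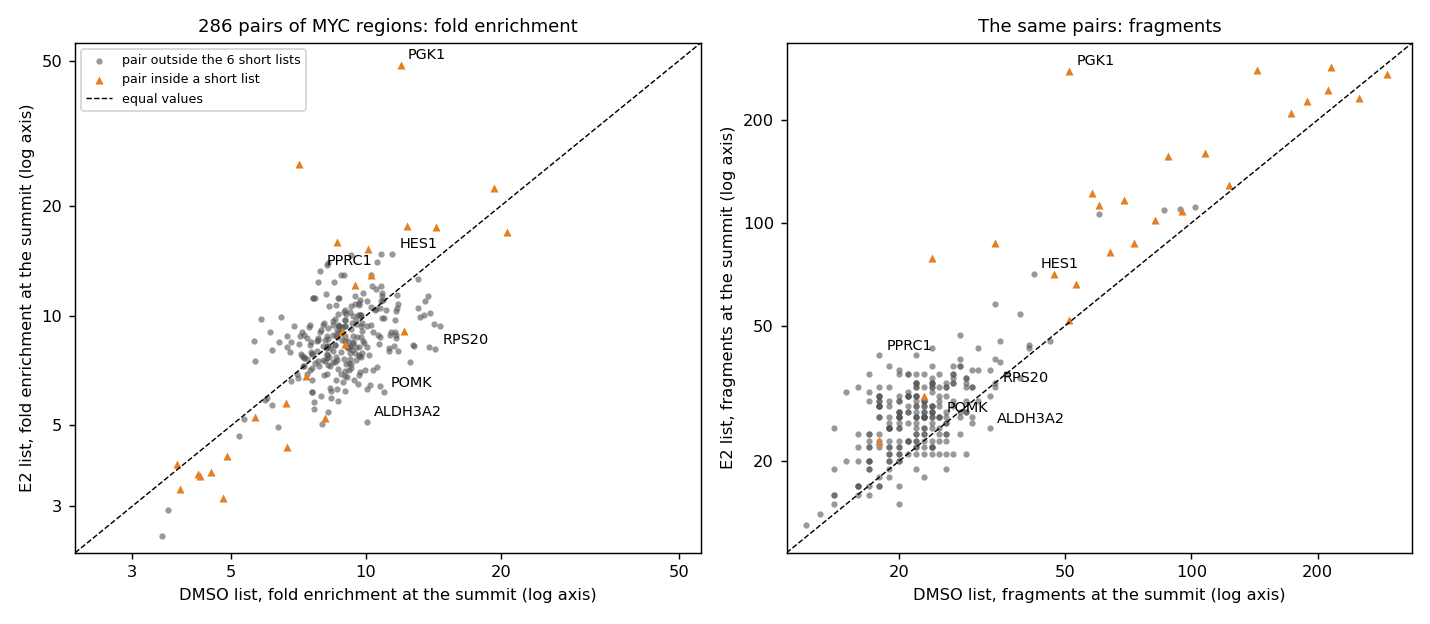
Each point is a pair of overlapping MYC regions (286 pairs), with the DMSO list on the x axis and the E2 list on the y axis, both log axes; fold enrichment is on the left and fragments at the summit on the right, the dashed line marks equal values, and triangles are pairs inside a short list. Fold enrichments scatter around the line (median ratio 0.962) with PGK1 and a MIR663AHG pair far above it, while fragments lie mostly above it (median ratio 1.22).

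The strongest shared regions were a mixture of gene starts and unusual sequence. By the lower of the 2 fold enrichments, the first 10 were a pseudogene on the X chromosome 317714 bp from IRS4 (19.3 under DMSO, 22.4 under E2), a run of guanines in an intron of LINC00486 (20.6 and 17.0), a second start site of MIR663AHG (14.4 and 17.5), FBXW8 (13.1 and 12.6), the microRNA genes MIR3648 and MIR3687 (12.4 and 17.6), PGK1, a start site near HES1 (11.4 and 14.8), RPL8 (11.7 and 11.4), ELOB (13.7 and 11.3) and the divergent pair PEBP1 and VSIG10 (13.5 and 10.98). HES1 is a transcriptional repressor of the Notch pathway, and ELOB is a subunit of Elongin. Of the shared regions 8.65% of the E2 list (25 of 289) lay in a short list, against 0.130% of E2-only (2 of 1533) and 0.962% of DMSO-only regions (3 of 312). Those 25 regions had a median of 117 fragments, and the other 264 had 27.5.

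The strongest E2-only regions had values in the range of the strongest shared regions. First was the start of RNU6-1, a gene for the U6 spliceosomal RNA (chr15:68132213-68132840), with a fold enrichment of 26.9 from 103 fragments. It was absent from the DMSO list of MYC and present in the RNAPII lists of all 4 libraries. There TAF1 went from 3.88 under DMSO to 14.1 under E2, RARA was 8.47 under E2 with no region under DMSO, and RNAPII was lower under E2 (70.2 and 12.8 under DMSO, 33.8 and 8.63 under E2). U6 promoters, too, are common elements of expression vectors, and whether such DNA added to the 26.9 was not tested. Next came an intronic region of MYO1D (19.2, 52 fragments), a region 290 bp from the start of TXNL4A, a U5 snRNP protein (16.1), an intergenic region 26089 bp from ACBD3 (14.6), NDUFAB1, the mitochondrial acyl carrier protein (14.5), APC2 (14.4, at 583 bp), TMEM106B (14.1), PPP1CC, a protein phosphatase 1 catalytic subunit (14.1), a region 7677 bp from NEUROG2 (14.1) and RPS15 (14.0). After the first 2, fragments ran from 23 to 49. Of these 10, NDUFAB1 alone overlapped a MAX region under E2.

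The strongest DMSO-only regions were weaker. They lay 1020 bp from TRERF1, a zinc finger transcriptional regulator (16.04), at GALNT14, a glycosyltransferase (14.7), at RPS15A (14.6), at the non-coding RNA gene LINC02028 (14.5) and at ESYT2 (14.5), with 19 to 34 fragments. The regions near TRERF1 and at LINC02028 and ESYT2 overlapped a MAX region that was called under E2.

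MYC regions of all classes lay at gene starts. Regions within 250 bp of an annotated start site made up 81.3% of shared regions (E2 list; 95% exact interval 76.3 to 85.6), 77.6% of E2-only (75.4 to 79.6) and 84.3% of DMSO-only regions (79.8 to 88.1). Start sites of protein-coding genes accounted for 74.7%, 71.8% and 78.2%, and those of long non-coding RNA genes alone for 5.54%, 5.09% and 5.45%. The summits straddled the start: among those within 1000 bp of a protein-coding start, the median position was 5 bp downstream at shared, 19 bp at E2-only and 19 bp at DMSO-only regions, and 43.8%, 41.3% and 38.7% of these summits lay upstream. E2-only regions had the larger share in exons away from starts, 7.76% (6.47 to 9.22) against 2.77% (1.20 to 5.38) of shared and 3.85% (2.0 to 6.62) of DMSO-only regions.

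H3K4me3 marked the great majority of regions. The H3K4me3 list under DMSO overlapped 87.9% of shared (83.6 to 91.4), 86.8% of E2-only (85.0 to 88.5) and 96.2% of DMSO-only regions (93.4 to 98.0). H3K4me1 was rare, at 1.38%, 1.37% and 0.321%. Most E2-only regions, like most DMSO-only regions, therefore lay in places marked by H3K4me3 in cells without E2. H3K4me3 was mapped after 8 h and MYC after 1 h.

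A smaller set of regions lay away from start sites and from H3K4me3. It numbered 136 of the 1533 E2-only regions (8.87%, 7.5 to 10.4), 8 of the 312 DMSO-only regions (2.56%, 1.11 to 4.99) and 18 of the 289 shared regions, 13 of the latter in short lists. Of the 136, 55 were exonic, 41 intronic and 40 intergenic, 66 overlapped c-JUN under E2, 9 overlapped H3K4me1 and 4 overlapped MAX under E2. The strongest were those in MYO1D and near ACBD3 named above, in an intron of MLXIPL (13.8), which encodes the MLX partner ChREBP, in an exon of ZMYND8 (13.8), in an intron of AXIN1 (12.9) and in an exon of ALPK3 (12.9). These 6 were picked for their fold enrichment after the values were seen. Those at MLXIPL, ZMYND8, AXIN1 and ALPK3 lay in none of the other 22 T-47D lists. In all, 70 E2-only regions (4.57%) lay in no other T-47D list, and these had a median of 16 fragments.

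The partner of MYC, MAX, differed between the classes. The MAX list under E2 (1492 regions) overlapped 50.9% of shared regions (44.9 to 56.8), 23.2% of E2-only (21.1 to 25.4) and 31.7% of DMSO-only regions (26.6 to 37.2). MAX under DMSO had 199 regions and overlapped 5.54%, 1.83% and 0.962% of them. The E2-only MYC regions therefore had MAX under E2 less often than the shared ones by a margin beyond counting error, and 1178 of them had no MAX region. E2-only regions with MAX lay at start sites in 91.0% of cases and those without in 73.5%. Their fold enrichment was near-equal (medians 8.58 and 8.76), while the median number of fragments was 26 with MAX and 22 without.

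To set these shares against active promoters in general, the 12479 protein-coding genes with H3K4me3 at a start site were divided by MYC. Of these, 255 had a MYC region at a start site in both lists, 1198 in the E2 list only, 264 in the DMSO list only and 10762 in neither. MAX under E2 was present at 55.3% (141 genes), 31.5% (377), 33.7% (89) and 7.28% (784) of them. TAF1, a subunit of the initiation factor TFIID, followed the same order, at 88.6%, 70.5%, 77.3% and 39.7% under E2 and at 82.4%, 60.8%, 68.9% and 32.2% under DMSO. SIN3A in full medium, the corepressor that MAX complexes can recruit, stood at 16.5%, 9.68%, 7.95% and 4.4%. RARA under E2 varied less, at 8.63%, 6.43%, 6.44% and 6.20%. c-JUN under E2 was at 91.0% of the genes with no MYC region and at 99.8% or more of the others.

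The number of antibodies at a promoter moved with the MYC class. Of the 10 other antibodies mapped in T-47D cells, at least 5 had a region at a start site in 92.5% of the genes with MYC in both lists. The share was 68.4% with MYC under E2 only, 76.1% with MYC under DMSO only and 28.7% with neither. H3K4me3 is 1 of the 10 and was present at every gene by the choice of genes. Even with neither list, 94.5% of genes had RNAPII in the first DMSO library and 91.0% had c-JUN under E2. The list labelled H3K27me3 under DMSO rose in the same way, at 89.4%, 71.2%, 73.9% and 29.8%. The part of reads gathered at open promoters by any antibody was not tested.

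**Figure D3:**
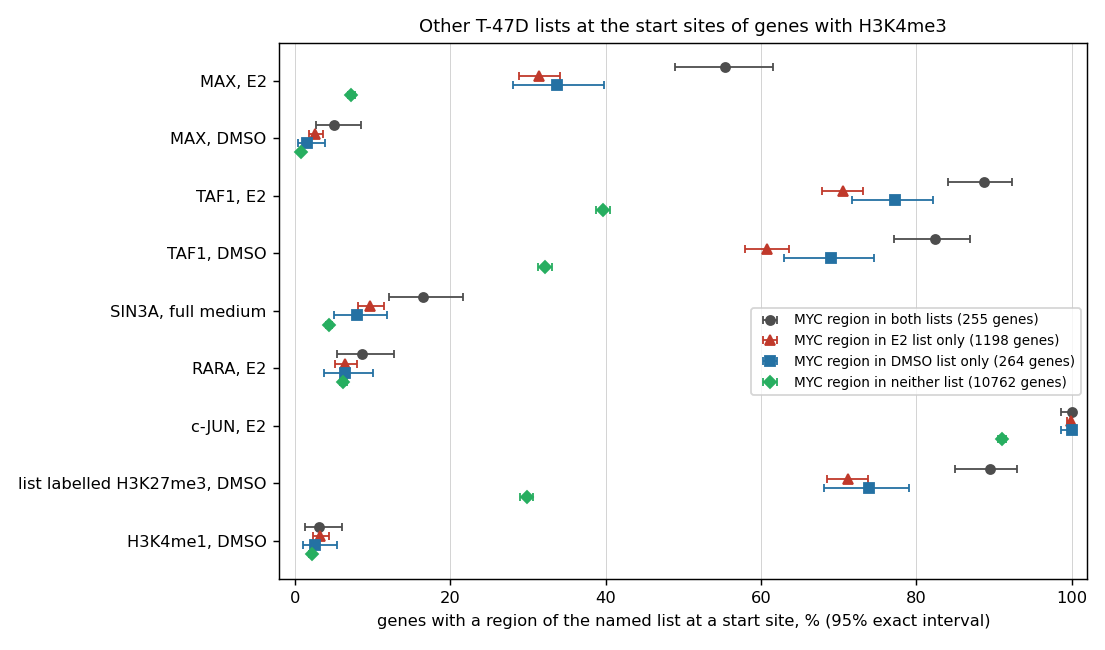
Share of genes with a region of each named T-47D list within 250 bp of a start site (x axis, %, points with 95% exact binomial intervals), for 12479 genes with H3K4me3 divided by the MYC list that holds their start site. MAX under E2 falls from 55.3% of genes with MYC in both lists to 7.28% of genes with MYC in neither, and TAF1 and the list labelled H3K27me3 follow the same order.

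The canonical E-box had near-equal shares in the 3 classes and differed with MAX. CACGTG lay within 100 bp of the summit (either strand) in 6.92% of shared regions (4.28 to 10.5), 7.24% of E2-only (5.99 to 8.65) and 7.05% of DMSO-only regions (4.47 to 10.5). The same word was in 27.6% of MAX regions (25.4 to 30.0), 5.54% of TAF1 regions and 6.94% of c-JUN regions under E2, in 5.67% of windows at start sites with H3K4me3 and no MYC region, and in 4.74% of windows at all protein-coding start sites. Among MYC regions that overlapped MAX it was in 12.9% of shared (19 of 147), 15.2% of E2-only (54 of 355) and 13.1% of DMSO-only regions (13 of 99). Among those that did not, it was in 0.704% (1 of 142), 4.84% (57 of 1178) and 4.23% (9 of 213). The variant CACGCG was in 13.8%, 16.4% and 16.03% of the 3 classes and in 12.3% of the start sites with H3K4me3 and no MYC region, so this word was little more frequent at MYC regions than at other active starts. The windows were rich in G and C, with medians of 71.1%, 70.6% and 71.6% in the 3 classes and 65.2% at those start sites.

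Words read by other factors were also searched within 100 bp of the summit, on both strands. The consensus palindrome of the estrogen response element was in 0 of 1533 E2-only regions, which allows a share of up to 0.196% (3 counts of the total), and in 0 of 289 shared and 0 of 312 DMSO-only regions. Its share at other start sites is not given here, so no conclusion is drawn from these counts of 0. The nuclear receptor word AGGTCA was in 5.54%, 5.54% and 5.77% of shared, E2-only and DMSO-only regions, and in 9.57% of windows at all start sites. Those windows were less rich in G and C (median 60.2%) than the MYC regions, so they are not a like background. The AP-1 word TGANTCA was in 2.77%, 1.30% and 1.28%. GGGCGG, read by SP and KLF factors and overlapping no E-box word, was in 58.1%, 56.7% and 63.1%, against 50.7% of start sites with H3K4me3 and no MYC region. A word in a window is a match of letters and not a measured site.

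**Figure D4:**
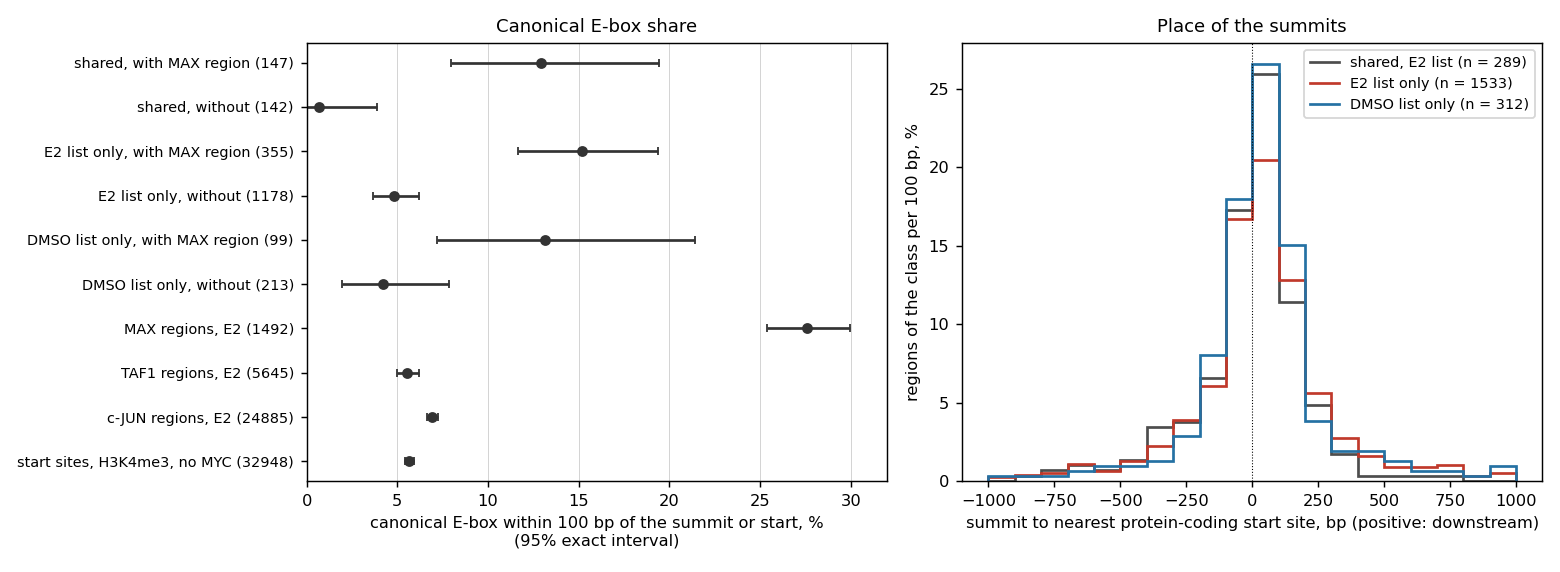
Left, share of windows with CACGTG within 100 bp (x axis, %, points with 95% exact binomial intervals) for MYC regions with and without an overlapping MAX region under E2, for other T-47D lists, and for start sites with H3K4me3 and no MYC region, with the number of windows in brackets. Right, distance from the summit to the nearest protein-coding start site in bins of 100 bp (x axis) as the share of each class (y axis, %). The word is in 12.9% to 15.2% of MYC regions with MAX and in at most 4.84% of those without, and summits of the 3 classes gather at the start site.

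RNAPII, the only target with replicates, was already present at the E2-only regions without E2. It overlapped 93.0% and 66.3% of them in the DMSO libraries, and 85.6% and 77.6% in the E2 libraries. The treatments overlapped, and the difference of the means (81.6% ± 5.67 under E2 and 79.7% ± 18.9 under DMSO, SD, n = 2) was 1.96 points, with p = 1 in the exact two-sided permutation test, which cannot give less than 0.333 with 2 libraries against 2. At shared regions the difference was 3.29 points and at DMSO-only regions 2.40 points, both with p = 1 by the same exact test. Of the 46282 RNAPII regions of the first E2 library, 1077 (2.33%) were also in the second and in neither DMSO library. They overlapped 0 of the 1822 MYC regions under E2. Of those MYC regions, however, 93.0% overlapped RNAPII in the first DMSO library. The definition of the set therefore left little room for an overlap, and no conclusion is drawn from the 0.

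At the genes best known for the response, GREB1, an estrogen-induced coactivator, had 14 and 2 RNAPII regions within 100 kb in the DMSO libraries and 117 and 109 in the E2 libraries. Within the same distance, the DMSO list of MYC held 0 regions and the E2 list 1, upstream of the gene (chr2:11605769-11606069, fold enrichment 8.58). TFF1, another classic target, had none in either list. At the MYC gene, 1 MYC region lay at a start site under E2 (8.28, 21 fragments) and 0 under DMSO, and at MAX likewise (chr14:65569612-65569918, 8.85, 27 fragments).

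Over all 20090 protein-coding genes, 1474 (7.34%) had an E2 MYC region within 250 bp of a start site, 524 (2.61%) a DMSO region and 257 (1.28%) both, and 1217 (6.06%) had one only under E2 and 267 (1.33%) only under DMSO. Of genes with H3K4me3 the shares were 11.6% under E2 and 4.16% under DMSO. These shares are the background for the lists below, whose genes are mostly active, and each list is given as a count with no test.

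Cytosolic ribosomal protein genes had MYC under both treatments, at shares above those of genes with H3K4me3 (11.6% under E2 and 4.16% under DMSO). Of 80 cytosolic ribosomal protein genes, 19 (23.8%) had MYC under E2 and 10 (12.5%) under DMSO, 7 of them in both. In both lists were RPL6 (10.0 under DMSO, 6.30 under E2), RPL8, RPL10A (6.81 and 8.5), RPL13 (9.78 and 9.58), RPL35 (9.21 and 10.2), RPS3 (10.6 and 8.83) and RPS20. RPS15 (14.0), RPL38 (11.1), RPS3A (10.8) and RPL22 (10.4) were strongest among the 12 genes with MYC under E2 only, and RPS15A (14.6), RPL36 (10.7) and RPS29 (6.23) were the 3 with MYC under DMSO only. Of 44 translation factors 8 (18.2%) had MYC under E2 and 3 (6.82%) under DMSO. PABPC1, the poly(A)-binding protein, went from 8.94 to 12.9, EEF1D from 7.17 to 7.84, and EIF1 was in the DMSO list only (7.98). Of 22 aminoacyl-tRNA synthetases, EPRS1 was in both lists (9.49 and 7.58) and WARS1 (9.04) and YARS1 (9.43) in the E2 list. The synthetase shares, 13.6% under E2 and 4.55% under DMSO, were near those of genes with H3K4me3.

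Of 40 ribosome biogenesis genes, 4 (10.0%) had MYC under DMSO and 2 (5.0%) under E2, beside 4.16% and 11.6% of H3K4me3 genes. These counts are too few to set the list apart, and no test was made. NCL (nucleolin; 7.11), NOP56 (a box C/D snoRNP protein; 10.4) and WDR43 (a small-subunit processome protein; 9.74) had it under DMSO only, NOP14 (12.8) under E2 only and MRTO4 in both (9.24 and 7.17). All 5 regions overlapped MAX under E2.

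Of 24 nucleotide synthesis genes 8 had a region under E2 and 0 under DMSO. They were NME2 (12.1), PAICS (11.6), ATIC (10.0), DUT (8.88), CTPS2 (8.64), ADSS2 (8.07), GART (7.63) and NME1 (6.25). GART, PAICS and ATIC are enzymes of purine synthesis, and DUT keeps uracil out of DNA. Of 17 polyamine and one-carbon genes 4 had a region under E2 and 0 under DMSO, namely MTHFD2 (10.5), ALDH1L2 (9.63), OAZ1 (9.37) and PSPH (6.33, shared with the start of CCT6A). With a DMSO background of 4.16% of H3K4me3 genes, 0 of lists of this size under DMSO is near the background, and the difference between treatments was not tested. ATIC, DUT, NME1, NME2, MTHFD2 and PSPH overlapped MAX. The 8 nucleotide genes rested on 16 to 29 fragments each.

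Glycolysis had 5 of 18 genes (27.8%) under E2 and 1 (5.56%) under DMSO, beside 11.6% and 4.16% of H3K4me3 genes. PGK1 was in both lists, and HK2 (hexokinase; 9.15), ENO1 (enolase; 8.99), PKM (pyruvate kinase; 9.41) and LDHA (lactate dehydrogenase; 9.52) were in the E2 list only, with 17 to 24 fragments each. Cell cycle and replication genes had 7 of 35 under E2 and 2 under DMSO, with no gene in both. PCNA, the replication clamp, was strongest under E2 (10.1), beside E2F3 (9.04), CDKN1B (9.03), MCM2 (8.64), CDKN1A (7.72), PLK1 (7.58) and MCM4 (6.11), and CCND3 (cyclin D3; 11.6) and CDKN2B (8.82) were in the DMSO list only.

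Chaperones had MYC at 7 of 20 genes (35.0%) under E2 and at 1 of 20 (5.0%) under DMSO, beside 11.6% and 4.16% of H3K4me3 genes. HSPA8, the constitutive HSP70, was in both (7.04 and 6.73), and HSPB1 (12.4), HSP90AA1 (10.4), DNAJB1 (10.1) and the chaperonin subunits CCT2 (9.95), CCT4 (8.00) and CCT6A (6.33) were in the E2 list only. Mitochondrial biogenesis genes had 4 of 26 (15.4%) in each list, against the unlike backgrounds just given for E2 and DMSO. HSPA9 (9.09 and 8.17) and TOMM20 (6.89 and 9.38) were in both, TFAM (10.5) and TOMM22 (10.0) in the E2 list, and PPARGC1B (8.27) and TIMM50 (8.5) in the DMSO list. Spliceosome and mRNA processing genes had 5 of 30 (16.7%) under E2 and 2 (6.67%) under DMSO, where SRSF2 (6.0 and 5.95) and SRSF6 (9.16 and 7.43) were in both.

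Genes that estrogen or other stimuli induce had MYC at about the share of active genes. Of 35 estrogen-induced genes 5 had MYC under E2 and 0 under DMSO: MYBL1 (10.2), FOS (9.63), MYC, KCNK5 (7.95) and SGK3 (6.30). The FOS region itself did not overlap H3K4me3. Of 21 immediate early genes FOS, JUNB (9.56) and KLF10 (6.94) did under E2 and 0 under DMSO. Of 16 luminal factors GATA3 (8.13), KRT19 (6.92) and ERBB3 (8.5) did under E2, and of 16 genes of the MYC network MYC, MAX and MLX (8.96), again with 0 under DMSO. No endometrial factor had a MYC region in either list, but that list holds 12 genes, 5 of them with H3K4me3. A count of 0 in so short a list is near the background of active genes. With 11.6% of H3K4me3 genes in the E2 list, the shares of the estrogen-induced (14.3%) and immediate early genes (14.3%) were near the background of active genes.

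**Figure D5:**
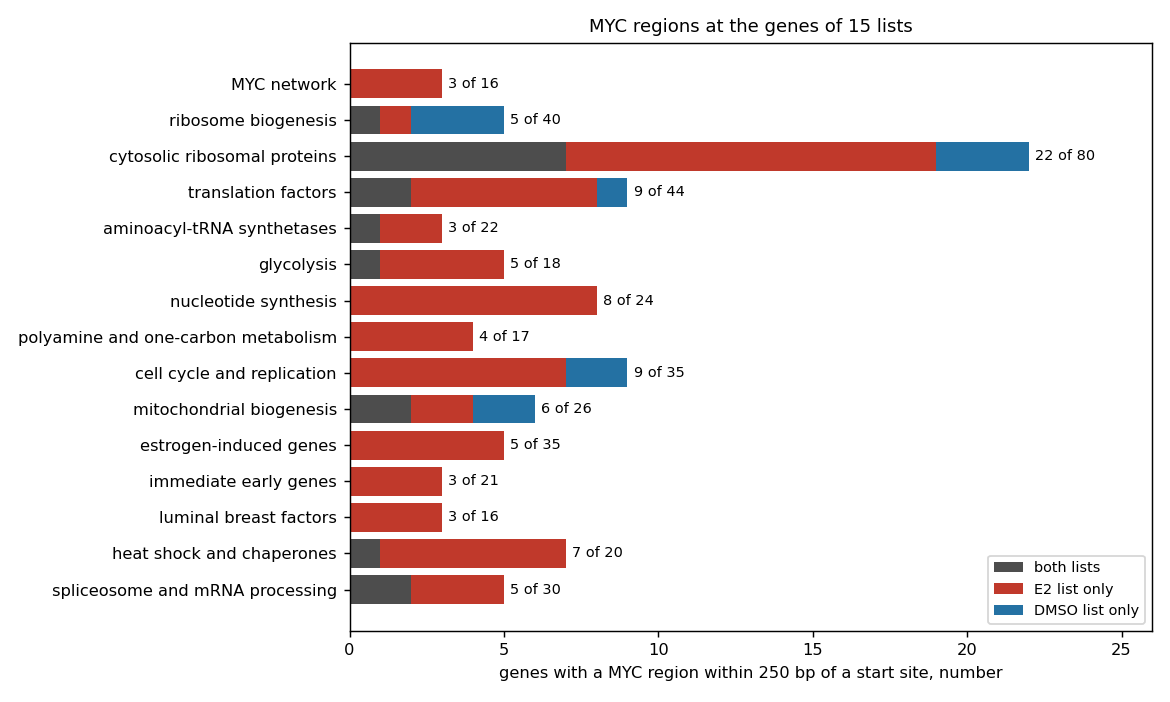
Number of genes of each list (x axis) with a MYC region within 250 bp of a start site, in both lists, in the E2 list only or in the DMSO list only, with the total and list size beside each bar. Cytosolic ribosomal proteins have 22 of 80, nucleotide synthesis has 8 of 24, all under E2 only, and ribosome biogenesis has 3 of its 5 under DMSO only. Of all 1741 protein-coding genes with a MYC region at a start site, 1217 had it under E2 only and 267 under DMSO only.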

How the data were processed

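The deposited files are narrowPeak lists, 1 per library. Per the study's methods and processing notes, the authors aligned 50 bp reads to hg19 with bowtie 1.1.2, keeping uniquely placed reads, and called peaks per library with MACS2 2.1.0.20140616. For each summit the authors deposited a fold enrichment (a ratio over local background), the p-value and the q-value as −log10, and a score. Unique placement loses repeats, and peak numbers depend on depth, which the lists do not give.

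Here, overlaps (1 bp or more) were computed in Python 3.11.15 (numpy 2.4.6, pandas 2.3.3, scipy 1.17.1). Fragments at a summit were solved from fold enrichment and p (tolerance 0.001 in −log10 p). Places and genes came from GENCODE release 44 mapped to GRCh37, and 4 peaks that end past a chromosome, all mitochondrial, show hg19's own mitochondrial sequence. Intervals are exact Clopper-Pearson at 95%, covering counting error only, and a count of 0 is given the limit of 3 counts. RNAPII shares used the exact permutation test over libraries; nothing in the labels says that these came from separate cultures, so its p measures only the spread between libraries. Named regions were, on chromosomes 1 to 22 and X, the 10 strongest E2-only, 10 strongest shared and 5 strongest DMSO-only, the 5 largest and 5 smallest ratios, list genes with a MYC region, and the loci MYC, MAX, GREB1 and TFF1. The members and lists were chosen with earlier results of these data known. Scripts were tested on simulated data. The 4 inputs were not used here.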

Additional observations from a re-analysis of the deposited data

Results flagged for a closer look

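The number of MYC regions under E2 was 3.03 times that under DMSO in T-47D cells and 0.0328 times in Ishikawa cells, an endometrial carcinoma line, where the lists held 61 and 2 regions. The opposite directions rest on 1 library per group, and the difference was not tested. Of the 61 Ishikawa regions, 31 overlapped the T-47D DMSO list and 30 the E2 list. In the E2 list they fell on 17 regions, all of them shared, and on 0 of the 1533 E2-only regions. The list of 61 is also 1 of the 6 short lists set apart above.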

How the results depend on the processing

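The lists are limited by few fragments per peak and by 1 library per treatment. Reciprocal overlap of 50%, a gap of up to 500 bp, −log10 p of at least 15 and removal of peaks of at most 100 bp (none existed) left class sizes within 1.5 times, and the shares and the ratio over pairs within their intervals. With fold enrichment of at least 10, 34 regions were shared, 418 E2-only and 126 DMSO-only, the median ratio over pairs turned to 1.02, H3K4me3 covered 76.5% of shared and 82.1% of E2-only, MAX 58.8% of shared and 37.3% of DMSO-only, and start sites 73.0% of E2-only regions. With the E2 list shortened to the DMSO length, which sets the ratio of numbers to 1.00, 148 were shared and 453 E2-only, the ratio over pairs turned to 1.08, which follows from keeping only strong E2 peaks, start sites held 75% of shared and 81.9% of E2-only, H3K4me3 81.1% and 91.4%, and MAX 58.8% and 29.6%. Without the regions of the 6 short lists, start sites held 86.7% and H3K4me3 95.5% of shared regions. A window of 1000 bp gave start site shares of 86.5%, 87.9% and 91.7% (shared, E2-only, DMSO-only) and 8 estrogen-induced and 5 immediate early genes under E2. The E2 list of H3K4me3 covered 83.0% of E2-only and 92.6% of DMSO-only regions, and the DMSO list of MAX 5.54%, 1.83% and 0.962% of the classes. Within 200 bp of the summit CACGTG was in 13.5%, 13.6% and 13.5%. The cause of the other changes was not tested. The RNAPII difference at E2-only regions ran from -11.4 to 15.3 points when a library was left out, and turned negative without the second DMSO library (-11.4) and without the first E2 library (-2.05), where a lone library is assumed to vary like the rest; the threshold could not be passed in any case. With the replicate number as a block (pairing by number, which the labels do not tie to a shared culture) the difference was 1.96 points, from -7.37 and 11.3 within numbers.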
